A study of Mus musculus with 3 samples.

Results

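Stitched clusters of accessible peaks away from promoters were examined in dopaminergic neurons (DNs) of the midbrain ventral tegmental area (VTA). Clusters were chosen by the number and spacing of their peaks. Autosomal peaks whose centre lay within 1 kb of the start of a protein-coding transcript were dropped, neighbours with a gap of at most 12500 bp were joined, and a joined group of 5 or more peaks was taken as a cluster. Of 54570 autosomal peaks, 16240 were dropped near a start and 38330 were left, here named non-promoter peaks. They formed 20706 groups, single peaks included, of which 1256 were clusters (6.07%, 95% exact binomial interval 5.74 to 6.40%). The clusters held 10828 non-promoter peaks (28.2%, 27.8 to 28.7%).

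The peaks come from single-nucleus ATAC-seq (snATAC-seq), in which a transposase cuts and tags open chromatin in isolated nuclei, of male C57Bl/6Nl mice aged 7 weeks in replicate 1 and 9 weeks in replicate 2. Both replicates are pooled in the 1 deposited peak list, and DN nuclei were recognised within the tissue by accessibility at *Th*, with *Lmx1b*, *Foxa1*, *Foxa2* and *Slc6a3* among the markers checked, so the choice of nuclei itself rested on accessibility at these genes. The series also holds mouse embryonic stem cells, which were not analysed here. The list gives positions only, every peak is 500 bp wide, and depth per peak and per library was not analysed here, so the list alone allowed no spread between animals and no test. Intervals below are 95% exact binomial intervals, which cover counting error only, and neighbouring peaks are not independent of each other.

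Enhancers are stretches of open chromatin, often far from a start site, where transcription factors bind and raise transcription of a gene. Genes that define a cell type often lie among many enhancers, and stitching of neighbouring enhancers is a usual first step in the definition of super-enhancers, which in addition requires a ranking by signal. No signal per peak was used here, so the clusters are dense runs of accessible peaks and are not super-enhancers by that definition. DNs make dopamine from tyrosine through tyrosine hydroxylase, encoded by *Th*, and dopa decarboxylase, encoded by *Ddc*, and they keep their identity under factors such as *Lmx1b*, *Nr4a2*, *En1* and *Foxa1*.

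To show what the peaks of these clusters hold, 200 bases are given from the peak with the most kinds of motif match in the clusters at *Lmx1b*, *Th*, *Ddc*, *Ret*, *Nr4a2* and *Drd2*, genes of DN identity and dopamine signalling. Sequences are from the forward strand of GRCm38 (mm10), and capitals mark matches on either strand to TGTTTAC (the forkhead word, bound by factors such as FOXA1), TAATTA (a homeodomain word), GGATTA (the word of bicoid-type homeodomain factors), AAAGGTCA (the NBRE, a word of NR4A nuclear receptors) or CAGCTG (an E-box of basic helix-loop-helix factors). Matches may overlap each other, and a match is a description of the sequence and not a bound site.
*Lmx1b*, chr2:33585177-33585376: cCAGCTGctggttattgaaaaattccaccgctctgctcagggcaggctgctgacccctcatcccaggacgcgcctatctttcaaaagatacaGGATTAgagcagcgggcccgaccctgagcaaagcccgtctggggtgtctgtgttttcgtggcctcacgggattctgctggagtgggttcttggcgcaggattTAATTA
*Th*, chr7:142917407-142917606: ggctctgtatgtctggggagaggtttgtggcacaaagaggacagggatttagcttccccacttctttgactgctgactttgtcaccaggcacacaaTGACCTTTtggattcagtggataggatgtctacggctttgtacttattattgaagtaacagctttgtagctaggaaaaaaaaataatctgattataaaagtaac
*Ddc*, cluster of 7 peaks, chr11:11888170-11888369: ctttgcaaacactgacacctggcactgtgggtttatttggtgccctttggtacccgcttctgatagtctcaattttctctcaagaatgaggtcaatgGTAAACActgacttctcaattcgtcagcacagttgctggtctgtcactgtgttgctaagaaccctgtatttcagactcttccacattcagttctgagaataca
*Ddc*, cluster of 6 peaks, chr11:11847487-11847686: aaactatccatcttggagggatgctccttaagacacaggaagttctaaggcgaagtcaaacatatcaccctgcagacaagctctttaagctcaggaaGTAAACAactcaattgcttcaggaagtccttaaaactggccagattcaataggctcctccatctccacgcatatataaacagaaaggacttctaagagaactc
*Ret*, chr6:118186720-118186919: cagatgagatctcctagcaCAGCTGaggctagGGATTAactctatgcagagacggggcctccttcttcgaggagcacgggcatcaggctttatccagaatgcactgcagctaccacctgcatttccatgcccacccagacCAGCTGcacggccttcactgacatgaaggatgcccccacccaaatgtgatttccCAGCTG
*Nr4a2*, chr2:57108609-57108808: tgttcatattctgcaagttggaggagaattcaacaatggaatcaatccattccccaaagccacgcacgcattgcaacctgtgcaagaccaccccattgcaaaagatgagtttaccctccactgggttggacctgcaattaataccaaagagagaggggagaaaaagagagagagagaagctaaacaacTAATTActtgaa
*Drd2*, chr9:49353961-49354160: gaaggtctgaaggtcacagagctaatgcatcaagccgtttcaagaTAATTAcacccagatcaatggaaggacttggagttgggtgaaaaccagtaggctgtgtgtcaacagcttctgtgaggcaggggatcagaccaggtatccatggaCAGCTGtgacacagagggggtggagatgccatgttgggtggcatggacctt

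The *Lmx1b* window lies 55.3 kb into the gene and holds an E-box, a bicoid-type word and a homeodomain word. The *Th* window has 1 NBRE, and each of the *Ddc* windows has 1 forkhead word. The *Ret* window holds 4 matches, of which 3 are E-boxes. The *Nr4a2* window has 1 homeodomain word, and the *Drd2* window has a homeodomain word and an E-box. Among all 38330 non-promoter peaks, 8.77% held the forkhead word, 8.94% the homeodomain word, 15.7% the bicoid-type word, 5.11% the NBRE and 33.3% the E-box. Clusters at dopaminergic genes, 23 in all with 220 peaks, held the forkhead word in 5.91% of peaks, the homeodomain word in 13.2%, the bicoid-type word in 12.7%, the NBRE in 3.64% and the E-box in 26.4%. Over the peaks of all clusters these shares were 6.34%, 6.59%, 14.3%, 3.57% and 34.8%, in the same order.

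The clusters were mostly short and a few were very large. The median cluster had 7 peaks (quartiles 5 and 9) over 24.1 kb (quartiles 16.1 and 34.6 kb), and spans ran from 3.02 to 175.1 kb. Together they spanned 36.0 Mb, or 1.46% of the autosomes. Clusters of 10 or more peaks numbered 311, those of 20 or more numbered 58 and those of 30 or more numbered 17. The 58 clusters of 20 or more peaks held 1588 peaks (14.7% of all peaks in clusters). The number of groups fell smoothly across the limit of 5 peaks, from 605 groups of 4 with a median span of 13.9 kb to 364 groups of 5 with a median span of 15.98 kb. The limit on gaps also cut through a continuum, with 277 gaps in the last 500 bp below it and 293 in the next 500 bp. Neighbouring peaks in a cluster were separated by a median of 1965 bp (quartiles 501 and 4982 bp), against 3642 bp in groups of 2 to 4 peaks, a difference that the choice of clusters favours. Gaps under 200 bp made up 12.7% of gaps in clusters and 10.1% of gaps in smaller groups. Peaks this close nearly adjoin each other.

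**Figure D1:**
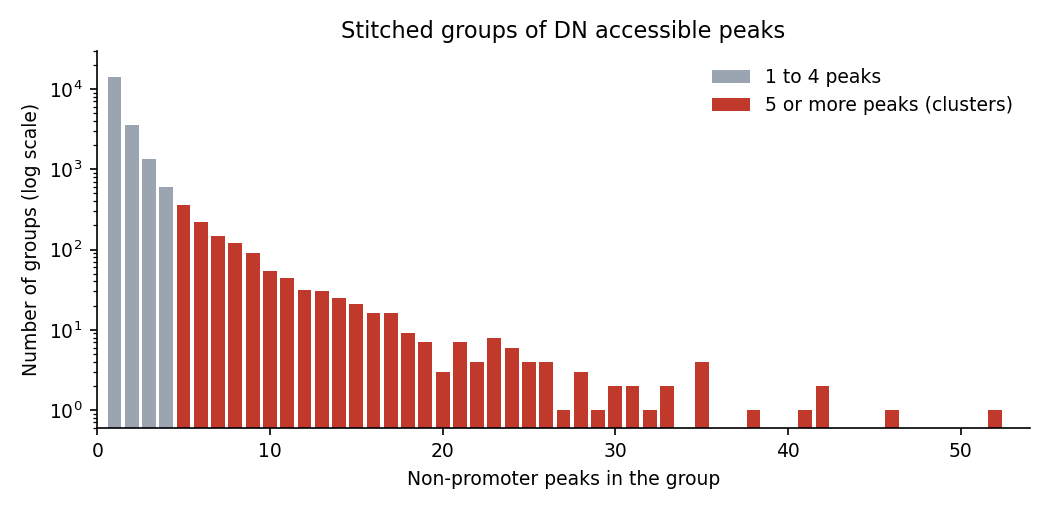
Number of stitched groups (log scale) against the number of non-promoter peaks they hold, with groups of 1 to 4 peaks in grey and the 1256 clusters of 5 or more peaks in red. Numbers fall without a step at the limit of 5, from 605 groups of 4 to 364 groups of 5, and the longest tail reaches 52 peaks.

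The cluster with the most peaks lay at *Nrxn2* (ENSMUSG00000033768), which encodes a presynaptic adhesion protein. It held 52 peaks over 175.1 kb (chr19:6373817-6548916), 40 of them in *Nrxn2* and the others in or between *Pygm*, *Sf1*, *Rasgrp2* and *Slc22a12*, and 12 promoter peaks lay within its span. The next cluster, at *Rab11fip4*, an effector of the recycling endosome GTPase Rab11, held 46 peaks over 143.1 kb (chr11:79568472-79711525), and 31 of them were intronic. *Lmx1b*, a LIM homeodomain factor needed for the specification and survival of DNs, had the third cluster by number of peaks (chr2:33541595-33643499), with 42 peaks over 101.9 kb. It overlapped no other protein-coding gene, and 27 of its peaks lay in the gene, 3 upstream and 12 beyond the 3′ end.

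The fifth cluster lay in the imprinted *Dlk1* to *Dio3* region of chromosome 12 (chr12:109533208-109611753) and had 41 peaks over 78.5 kb. The only protein-coding gene that it overlapped was *Rtl1*, a retrotransposon-derived gene, with 7 peaks. The long noncoding RNA gene *Meg3*, which is expressed from the maternal chromosome, held 17 of its peaks and *Rian* held 5, and 18 miRNA genes lay within its span. Of its 41 peaks, 17 lay within 1 kb of a start of a transcript outside the protein-coding set, against 5.55% of peaks over all clusters. A separate cluster of 23 peaks lay 105.6 kb from *Rtl1*, over *Mirg* with 7 peaks and over 44 miRNA genes, and 15 of its 23 peaks lay within 1 kb of such a start. A further cluster of 13 peaks lay entirely upstream of *Dlk1*, from 61.0 to 16.4 kb before its start. *Meg3*, *Rian* and *Mirg* were named here after their values were seen, since clusters were named by protein-coding genes.

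Of the other clusters of the first 25, those named by genes with a role in axons or synapses come first, a grouping made after the values were seen, and no list was counted for them. *Kif1a*, a kinesin that carries synaptic vesicle precursors, had 35 peaks over 88.8 kb, and 32 of them were in the gene. *Lrrc4b*, a postsynaptic adhesion gene with 17 of the peaks, named a cluster of 35 peaks that also covered *Emc10*, *Syt3*, *Fam71e1*, *Aspdh* and *Mybpc2*. *Mapt*, which encodes the microtubule-binding protein tau, had a cluster of 31 peaks, 29 of them in the gene, which began 36.1 kb after the 5′ end. A second cluster of 7 peaks lay before it, from 1.94 to 18.8 kb, so that all 36 non-promoter peaks of *Mapt* were in clusters. *Sptbn4*, the spectrin of the axon initial segment, named a cluster of 29 peaks, 15 of them in the gene. *Nfasc*, an adhesion gene of the same segment and of the node, had 28 peaks over 121.5 kb, all within the gene, and clusters of 7 and 5 peaks nearer its 3′ end.

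Some of the other clusters of the first 25 were named by genes of transcription or chromatin, for which no list was counted. The cluster of *Thra*, a thyroid hormone receptor gene, had 32 peaks, 13 of them in *Thra*, and covered *Nr1d1*, *Med24*, *Psmd3* and *Msl1* as well. *Nfic*, a nuclear factor I gene, named a cluster of 31 peaks, 18 of them in the gene, with 18 promoter peaks within its span. *Chd5*, a neuronal chromatin remodeller, named a cluster of 30, of which 16 overlapped the gene. *Brf1*, a subunit of the RNA polymerase III initiation factor, named a cluster of 35 peaks, but 7 of these lay in *Brf1* itself and 17 lay outside protein-coding genes. The clusters named by *Ahdc1* and *Gse1* had 26 peaks each. Of these, 12 overlapped *Ahdc1* itself, and all 26 of this *Gse1* cluster were intronic.

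The remaining clusters of the first 25 lay at *Crocc* with 38 peaks, *Abr* with 35, *Apc2* and *2900026A02Rik* with 33 each, *Atxn2* with 30, *Cabin1* and *Ralgps1* with 28 each, *Sgsm1* with 27 and *Midn* with 26. Of these peaks, 18 overlapped *Crocc* itself, 30 *Abr*, 12 *Apc2*, 33 *2900026A02Rik*, 12 *Atxn2*, 23 *Cabin1*, 28 *Ralgps1*, 24 *Sgsm1* and 8 *Midn*. *Crocc* encodes the ciliary rootlet protein, *Abr* a regulator of small GTPases and *Ralgps1* an exchange factor for Ral. These clusters were of different make-up. That of *2900026A02Rik* lay within the gene with 32 of 33 peaks in introns, whereas that of *Apc2* covered 8 protein-coding genes with 15 of 33 peaks in exons and 14 promoter peaks within its span. Over all 25, 569 of 839 peaks were intronic by their middle base, 112 had it in an exon and 158 had it outside protein-coding genes. Of the 25 clusters, 11 touched 3 or more protein-coding genes, 4 lay within 1 gene and 20 had a promoter peak within their span. Their density ran from 23.0 to 52.2 peaks per 100 kb, around the median of 30.8 over all clusters. All 25 spanned more than the median cluster, from 53.7 to 175.1 kb.

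**Figure D2:**
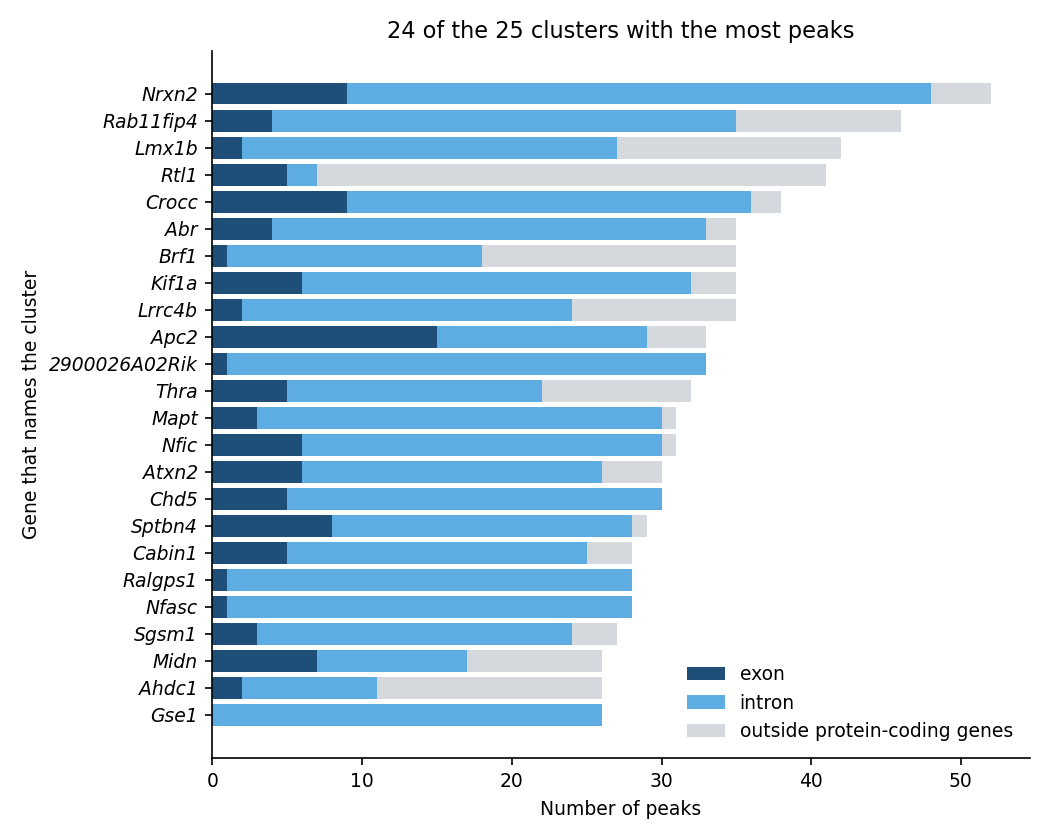
Number of peaks in 24 of the 25 clusters with the most peaks, named by protein-coding gene, split into peaks whose middle base lies in an exon (dark blue), in an intron (light blue) or outside protein-coding genes (grey). Introns hold most peaks of most clusters, and the cluster named by *Rtl1* stands out with 34 of 41 peaks outside protein-coding genes, 17 of them over *Meg3*.

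The clusters of dopamine genes were smaller than those at the top of the ranking. Of 13 autosomal genes of a list of dopamine synthesis, storage, clearance and signalling genes, 5 were overlapped by a peak of a cluster (38.5%, 13.9 to 68.4%). Over all 20807 autosomal protein-coding genes the share was 8.44% (1756 genes), and over genes of the same length classes as the list it was 8.83%. *Th* had 9 peaks in a cluster of 25.6 kb (chr7:142894101-142919676). All 9 were intronic in the longest annotated gene model, at 11.7 to 36.8 kb from its 5′ end, and the 1 promoter peak within the span lay at 31.0 kb, near the start of a shorter transcript. The peaks at 11.7, 13.5, 14.8, 23.0, 28.9 and 29.8 kb lay before this promoter peak and upstream of that transcript. Those at 33.6, 36.2 and 36.8 kb lay after it. *Ddc* had clusters of 7 and 6 peaks, the first at 4.79 to 30.0 kb and the second at 46.4 to 61.2 kb from the 5′ end. Taken as a whole gene, 13 of the 16 non-promoter peaks of *Ddc* belonged to clusters.

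*Ret*, the signalling receptor for GDNF family ligands, had a cluster of 7 peaks, 5 in the gene and 2 upstream of it. *Drd2*, the dopamine receptor that also serves as autoreceptor on DNs, had 5 intronic peaks over 21.9 kb, from 5.08 to 26.5 kb after its 5′ end. The vesicular monoamine transporter gene *Slc18a2* had 7 non-promoter peaks and the dopamine transporter gene *Slc6a3* had 1, none of them in a cluster. *Gch1*, which supplies the cofactor of tyrosine hydroxylase, had 2 non-promoter peaks outside clusters. All 13 genes of the list had a promoter peak (75.3 to 100%), against 63.5% for the same length classes and 56.9% of all autosomal protein-coding genes.

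Of 20 genes of midbrain dopaminergic transcription factors, 9 were overlapped by a peak of a cluster (45%, 23.1 to 68.5%, against 9.84% for the same length classes). *Myt1l*, a zinc-finger factor that keeps neurons from other fates, had 4 clusters of 11, 9, 8 and 8 peaks, 2 of them before and 2 past the middle of the gene. *Zfhx3* had 3 clusters of 10, 7 and 5 peaks, the first of them 749.8 kb from the 5′ end. At *Foxa1*, *En1* and *En2* most peaks of the cluster lay outside the gene. *Foxa1*, a forkhead factor of DN identity, had 7 peaks of which 2 lay in the gene, 2 upstream and 3 downstream. *En1*, an engrailed homeodomain gene needed for DN survival, had 7 peaks with 5 upstream, and its paralogue *En2* had 5 peaks with 3 downstream.

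*Nr4a2*, the nuclear receptor that activates *Th* and other dopamine genes, had 6 peaks from 6.42 to 24.1 kb, 4 in the longest gene model and 2 beyond its 3′ end. Promoter peaks within the span lay at 8.985 and 10.78 kb, and the peaks at 6.42, 7.18 and 7.78 kb lay before them. *Ebf3* had 6 peaks, 4 in the gene and 2 upstream. A cluster of 5 peaks was nearest to *Pbx3*, 62.8 kb away. *Lmx1a*, the paralogue of *Lmx1b*, had 6 non-promoter peaks and *Pitx3*, a factor of DN survival, had 2, with none in a cluster. *Foxa2*, *Sox6*, *Otx2*, *Ebf1*, *Nr2f1*, *Nr2f2*, *Bcl11a* and *Tcf4* had from 0 to 7 non-promoter peaks and no peak in a cluster.

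**Figure D3:**
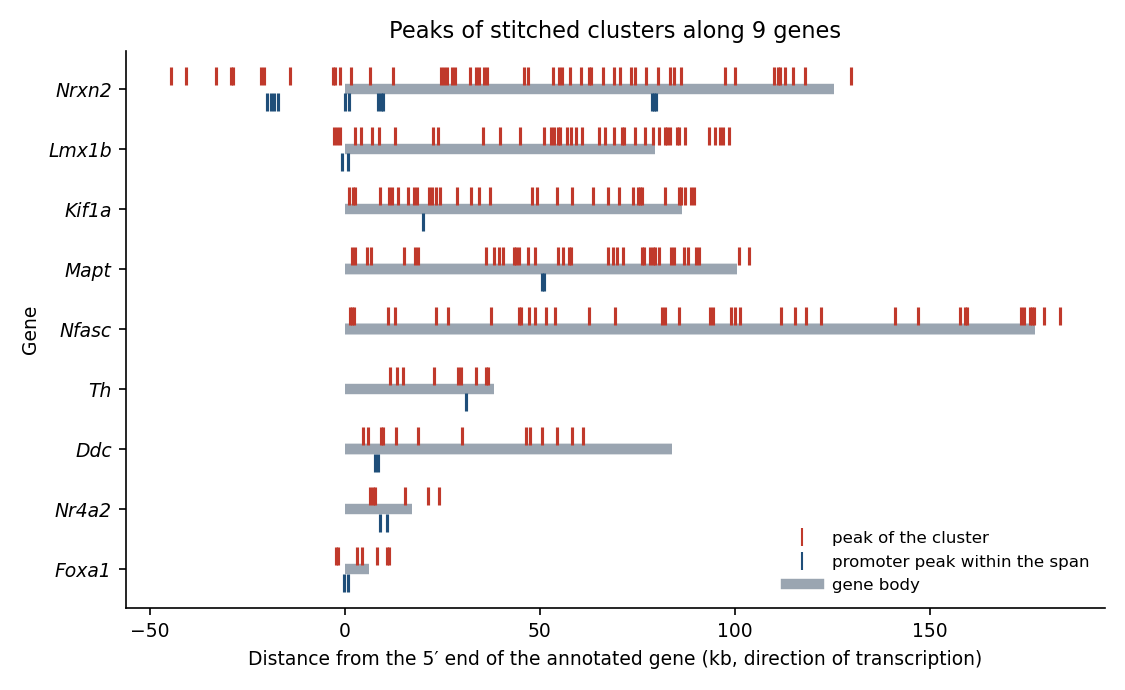
Position of the peaks of stitched clusters (red marks above) and of promoter peaks within the span of the cluster (blue marks below) along 9 genes, in kb from the 5′ end of the annotated gene (grey bar) in the direction of transcription. Of the peaks at *Lmx1b*, 12 lie past its 3′ end, and *Mapt* and *Ddc* show 2 clusters each and *Nfasc* 3.

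For genes that mark other cells, shares were compared with 7.57 to 9.01% of genes of the same length classes, about the 8.44% over all genes. None of the 16 Hox genes of hindbrain and spinal cord, 11 oligodendrocyte genes, 9 astrocyte genes, 12 microglial and vascular genes and 9 pluripotency genes was overlapped by a peak of a cluster. With lists of this size, 0 of 9 genes still allows a share of up to 33.6% and 0 of 16 a share of up to 20.6%. A promoter peak was found at 0 of the 16 Hox genes (0 to 20.6%, against 49.6% for the same length classes) and at 2 of 12 microglial and vascular genes (16.7%, 2.09 to 48.4%, against 61.3%). It was found at 3 of 11 oligodendrocyte, 3 of 9 astrocyte and 2 of 9 pluripotency genes, against 59.8%, 57.6% and 50.9%, which lay within the intervals of these 3 lists. A cluster of 6 peaks was nearest to *Mobp*, a myelin gene, but did not overlap it. Of 12 forebrain excitatory neuron genes, *Camk2a* had 2 peaks and *Cux2* 1 in clusters (2 genes, 16.7%, 2.09 to 48.4%, against 8.44% for the same length classes). Of the forebrain genes 5 had a promoter peak (41.7%, 15.2 to 72.3%, against 54.6%). Of 14 GABAergic neuron genes, 1 was overlapped by a peak of a cluster (7.14%, 0.181 to 33.9%, against 7.89%), and 3 had a promoter peak (21.4%, 4.66 to 50.8%, against 53.6%). For peaks of clusters, the shares for the same length classes lay within the intervals of all 7 lists, so these counts do not set the lists apart from other genes.

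Lists of synaptic and membrane genes were overlapped by clusters in different shares. Of 32 synaptic vesicle and scaffold genes, 15 had a peak of a cluster (46.9%, 29.1 to 65.3%, against 10.5% for the same length classes). The highest numbers were at *Ank3*, the ankyrin of the axon initial segment, with 23 peaks in 4 clusters, *Syt7*, a calcium sensor of release, with 17, *Shank1*, a postsynaptic scaffold gene, with 16, and *Bsn*, an active zone gene, with 12. *Shank2* also had 12. Of 33 genes listed as voltage-gated channel genes, 12 had a peak of a cluster (36.4%, 20.4 to 54.9%, against 11.3%). Among these were *Kcnn3* with 12 peaks in clusters and *Kcnj6* with 11, whose channels are not gated by voltage. The P/Q-type calcium channel gene *Cacna1a* led with 54 peaks in 3 clusters, which were all of its non-promoter peaks. The A-type potassium channel gene *Kcnd3* and the N-type calcium channel gene *Cacna1b* had 30 peaks each in clusters, and *Kcnma1*, the BK channel gene, had 26 in 4 clusters.

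Of 33 synaptic adhesion genes, 9 had a peak of a cluster (27.3%, 13.3 to 45.5%, against 11.3%). *Dscam* had 42 peaks in 5 clusters, *Nrxn2* had 40 in 1 cluster, and the receptor phosphatase genes *Ptprs* and *Ptprf* had 14 and 11. The neurexin paralogue *Nrxn3*, with 36 non-promoter peaks over 1612 kb, had 5 of them in a cluster. For glutamate and GABA receptors (5 of 28, 17.9%, 6.06 to 36.9%, against 11.4%) and axon guidance genes (5 of 30, 16.7%, 5.64 to 34.7%, against 11.6%) the share for the same length classes lay within the interval. *Gabbr2*, a subunit of the GABA-B receptor, led the receptors with 25 peaks in 3 clusters, followed by *Grik5* with 11, *Gabbr1* with 7 and *Grin2a* with 6. *Unc5a* and *Slit1* led the guidance genes with 16 peaks each, followed by *Plxna1* with 15 and *Nrp2* with 4.

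Of 18 immediate early genes, which respond to neuronal activity within minutes, 5 had a peak of a cluster (27.8%, 9.69 to 53.5%, against 7.54%), with 3 peaks at *Junb*, 2 at *Fosb*, 2 at *Jund* and 1 at *Egr4*. Of 22 cytosolic ribosomal protein genes, which are active in every cell, *Rpl3* and *Rpl19* had 1 peak each in clusters (9.09%, 1.12 to 29.2%, against 6.88%), although all 22 had a promoter peak. The lists were set with earlier results of these data known, so these shares are a description.

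**Figure D4:**
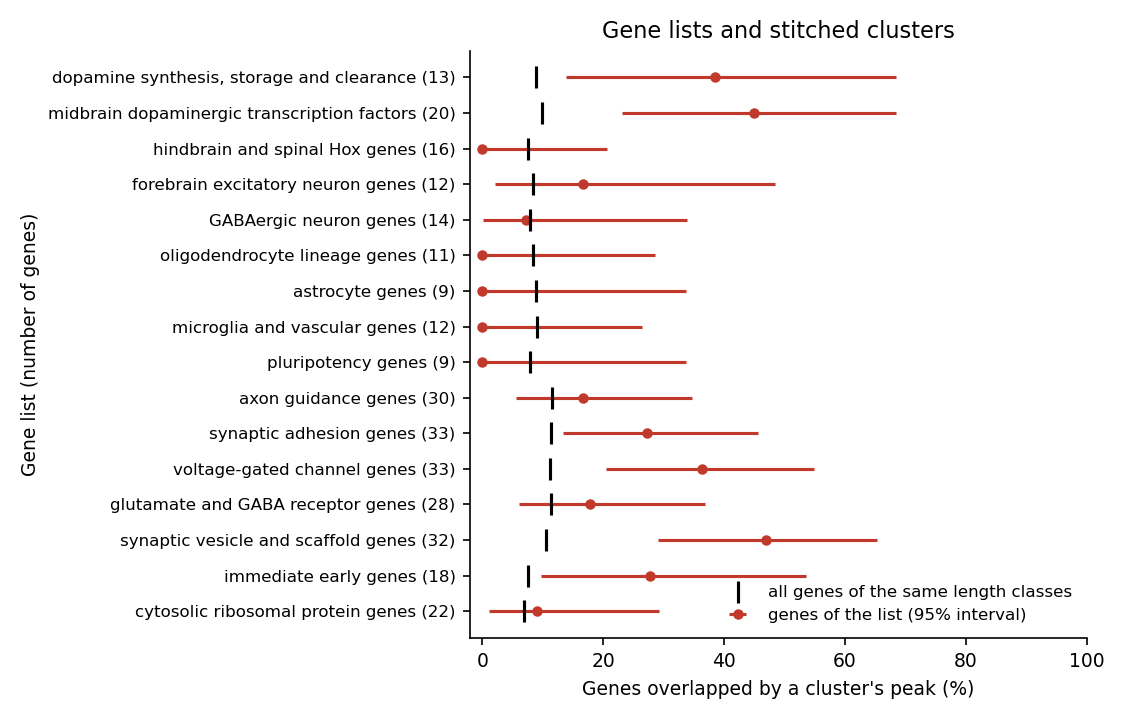
Share of the genes of each list that were overlapped by at least 1 peak of a cluster, in percent, with 95% exact binomial intervals (red) and the share among all autosomal protein-coding genes of the same length classes (black marks). The lists of dopamine genes, dopaminergic transcription factors, channels and vesicle and scaffold genes lie highest, at 36.4 to 46.9%, and 5 lists of other cells lie at 0.

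Of the clusters, 1134 (90.3%, 88.5 to 91.9%) overlapped a protein-coding gene with at least 1 peak, and 405 (32.2%) lay within 1 gene. Peaks of clusters lay more often in exons than single peaks did (13.9% against 4.56%), and also more often in introns (60.7% against 47.7%), and groups of 2 to 4 peaks lay between them in both respects (7.54% and 54.8%). The median distance to a protein-coding start was 13.5 kb for peaks of clusters, 24.7 kb for those of groups of 2 to 4 and 41.5 kb for single peaks. The exon share depended on the kind of cluster, with 5.07% of peaks in the 405 clusters within 1 gene and 27.8% in 166 other clusters that touched 3 or more genes. In genes of at least 50 kb, the fifth next to the 3′ end held 29.3% (28.0 to 30.6%) of peaks of clusters that lay in genes, against 21.9% (20.8 to 23.0%) of single peaks. The fifth next to the start held 16.2% and 19.7%, a share that the removal of promoter peaks lowers in both. In these shares a peak in more than 1 such gene was counted once for each gene. The read-through gene *Gm20388*, which 167 peaks of clusters overlap, was included, and leaving it out was not tried for these shares.

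Genes with a cluster had a promoter peak more often than other genes. A promoter peak was present at 88.0% (86.4 to 89.5%) of the 1756 genes overlapped by a peak of a cluster, at 74.4% (73.3 to 75.6%) of genes with non-promoter peaks outside clusters only, and at 45.3% (44.4 to 46.1%) of genes with no non-promoter peak. In genes under 10 kb the 3 shares were 87.5%, 67.5% and 31.4%, and all 65 genes over 300 kb with a peak of a cluster had a promoter peak. Of genes under 10 kb, 6.57% had at least 1 peak of a cluster and 0.412% had 5 or more, against 12.01% and 9.98% of genes over 300 kb. Between chromosomes, the share of non-promoter peaks that belonged to clusters ran from 12.7% on chromosome 3 to 36.6% on chromosome 11, with a median of 29.7%.

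The other 122 clusters (9.71%) overlapped no protein-coding gene. They lay at a median of 18.6 kb from the nearest gene, 54 of them within 10 kb and 17 farther than 100 kb. The 3 whose distance to a protein-coding start was largest lay 443.5 kb from that of *Ubash3b*, 417.9 kb from that of *Zfp536* and 340.0 kb from that of *Ptpru*, with 17, 6 and 9 peaks. The first of these (chr9:41578090-41632218) had the miRNA gene *Mir125b-1* within its 54.1 kb. The largest cluster without a protein-coding gene had 26 peaks over 97.4 kb (chr6:31136380-31233797), 24 of them in the long noncoding RNA gene *Lncpint*. A cluster of 13 peaks lay 47.9 kb from *Mef2c*, a gene of a neuronal transcription factor, and held *Mir9-2*, a gene of the neuronal miRNA miR-9. In the clusters at *Mir125b-1*, *Lncpint* and *Mir9-2*, 4 of 17, 6 of 26 and 7 of 13 peaks lay within 1 kb of a start outside the protein-coding set. *Lncpint* and both miRNA genes were named after their values were seen. Over all clusters, 112 (8.92%) held 194 of 2054 autosomal miRNA genes (9.44%), of which 63 were in the 3 clusters named by *Rtl1* and 131 (6.38%) in the others, while the spans of clusters cover 1.46% of autosomal length.

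The sequence of peaks changed with the size of the group. Mean GC content was 47.0% (SD 6.51, n = 13958) in single peaks, 49.9% (SD 6.38, n = 13544) in groups of 2 to 4 and 52.8% (SD 5.93, n = 10828) in clusters, and it was higher in clusters than in single peaks on 19 of 19 autosomes. Promoter peaks had 61.9% (SD 8.39). Windows of 500 bp placed 2 kb from the peaks and free of peaks showed the same order, with 43.9%, 46.4% and 49.3%, so the surroundings of clusters were also richer in GC. The ratio of observed to expected CpG was 0.270 in single peaks and 0.282 in clusters, far from the 0.711 of promoter peaks, and the repeat-masked share was 12.4% and 12.8%. Clusters varied among themselves, with a mean GC of their peaks from 39.5% at *Braf* to 65.9% at *Scarf2* and a median of 52.7%.

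CTCF, a zinc-finger protein of insulators and chromatin loops, has a long motif and was searched by a consensus of 12 bases. Its motif was less frequent in clusters. It was found in 8.64% (8.18 to 9.12%) of single peaks, in 7.49% of peaks of groups of 2 to 4 and in 4.23% of peaks of clusters, and the share was lower in clusters than in single peaks on 19 of 19 autosomes. The difference was 4.41 percentage points in size (95% interval of clusters minus single peaks -5.01 to -3.81). It kept its direction among peaks of like GC content, with 7.61% against 5.90% at a GC of 35 to 45%, 9.58% against 4.29% at 45 to 50%, 10.1% against 4.54% at 50 to 55% and 7.56% against 3.53% at 55 to 65%, single peaks first. In the lowest of these classes the intervals overlapped (6.90 to 8.36% and 4.44 to 7.67%). Compared with the windows beside the peaks, the motif was 32.9 times as frequent in single peaks and 9.00 times as frequent in clusters. No CTCF match was present in 879 of the 1256 clusters.

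The cluster of *Lmx1b* had CTCF matches in 3 of its 42 peaks, the highest number in any cluster and shared by 7 clusters. They are shown with 60 bases each on the forward strand of GRCm38, with the matched bases in capitals, since they lie at separate places of the cluster. The first 2 are in introns and the last lies upstream of the gene, in a peak centred at -2.74 kb from its 5′ end.
*Lmx1b*, chr2:33569436-33569495, intron: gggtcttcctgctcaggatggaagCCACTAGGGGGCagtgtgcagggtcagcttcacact
*Lmx1b*, chr2:33587685-33587744, intron: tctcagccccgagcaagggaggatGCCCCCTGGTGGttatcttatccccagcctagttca
*Lmx1b*, chr2:33643257-33643316, outside the gene: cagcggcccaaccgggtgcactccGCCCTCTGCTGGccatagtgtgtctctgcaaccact

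Forkhead, homeodomain and NBRE words were also less frequent in clusters, but these differences depended on GC content. The forkhead word was found in 10.9% (10.4 to 11.4%) of single peaks and 6.34% of peaks of clusters, and the share was lower on 19 of 19 autosomes. At a GC of 35 to 45% the shares were 12.8% and 12.3%, with overlapping intervals, whereas at 45 to 50% they were 11.6% and 8.38% and at 50 to 55% 8.87% and 6.25%. At 55 to 65% they were 4.84% and 3.8%, again with overlapping intervals (3.69 to 6.22% and 3.18 to 4.50%). The homeodomain word was found in 10.9% of single peaks and 6.59% of peaks of clusters, yet among peaks of like GC the shares were 15.7% and 15.9%, 9.69% and 9.46%, and 6.05% and 6.12% in the 3 lower classes and 3.65% and 3.12% at 55 to 65%. The NBRE was found in 6.42% and 3.57%, and at a GC of 35 to 45% in 8.66% and 5.45%. At 45 to 50% its shares were 5.99% and 4.84% and at 50 to 55% 4.36% and 3.65%, with overlapping intervals. At 55 to 65% its shares were 1.95% and 2.40%.

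For some words the difference between clusters and single peaks changed among peaks of like GC. The GC box GGGCGG, a word of SP and KLF factors, was found in 12% of single peaks and 20.6% of peaks of clusters, but at a GC of 50 to 55% in 17.1% and 14.6% and at 55 to 65% in 42.4% and 34.9%. The E-box with the centre GC was found in 31.3% and 34.8%, and in 33.0% and 28.0% at a GC of 45 to 50%. At a GC of 35 to 45% the GC box was at 3.85% and 5.68% and the E-box at 22.8% and 19.6%, so the E-box was lower in clusters among peaks of like GC and the GC box was lower only in the upper classes. The E-box CAGATGG of *Neurod* factors was found in 13.5% of single peaks and 14.1% of peaks of clusters, a difference whose interval included 0 (-0.28 to 1.45 percentage points). The bicoid-type word was found in 17.3% and 14.3%, and the direction was not the same in all GC classes. It was higher in clusters at a GC of 35 to 45% (20.6% and 22.0%) and 45 to 50% (17.6% and 20.3%), and lower at 50 to 55% (14.99% and 14.5%) and 55 to 65% (9.76% and 8.67%). The intervals overlapped in each of these 4 classes. Of the other motifs, TGANTCA, the AP-1 word of FOS and JUN factors, was found in 15.8% and 12.7% of peaks, and CCCNNGGG, a word of EBF factors, in 13.7% and 22.9%. At like GC the EBF word was at 6.90% and 6.70%, 12.6% and 13.6%, and 20.8% and 21.7% in the lower 3 classes, with overlapping intervals, and at 28.4% (25.8 to 31.0%) and 32.8% (31.2 to 34.4%) at a GC of 55 to 65%. The CRE word TGACGTCA was found in 0.688% and 0.970%, the motif of MEF2 factors in 7.90% and 6.49% and the SOX word ACAATGG in 5.75% and 5.13%. The motif of NFI factors was found in 0.129% and 0.0646% and that of RFX factors in 1.003% and 1.007%. In each of the 4 GC classes the intervals of clusters and single peaks overlapped for the AP-1, CRE, MEF2, SOX, NFI and RFX motifs. The AP-1 word was at 9.59% of single peaks and 11.02% of peaks of clusters at a GC of 55 to 65%, against lower shares in clusters in the other classes, the MEF2 motif was at 7.74% and 7.71% at 45 to 50% and 4.75% and 5.49% at 55 to 65%, and the SOX word was at 5.40% and 5.50% at 45 to 50%. Among the clusters, *Rere* had the most peaks with the forkhead word (5 of 23, as many as a cluster named by *Gm20388*).

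**Figure D5:**
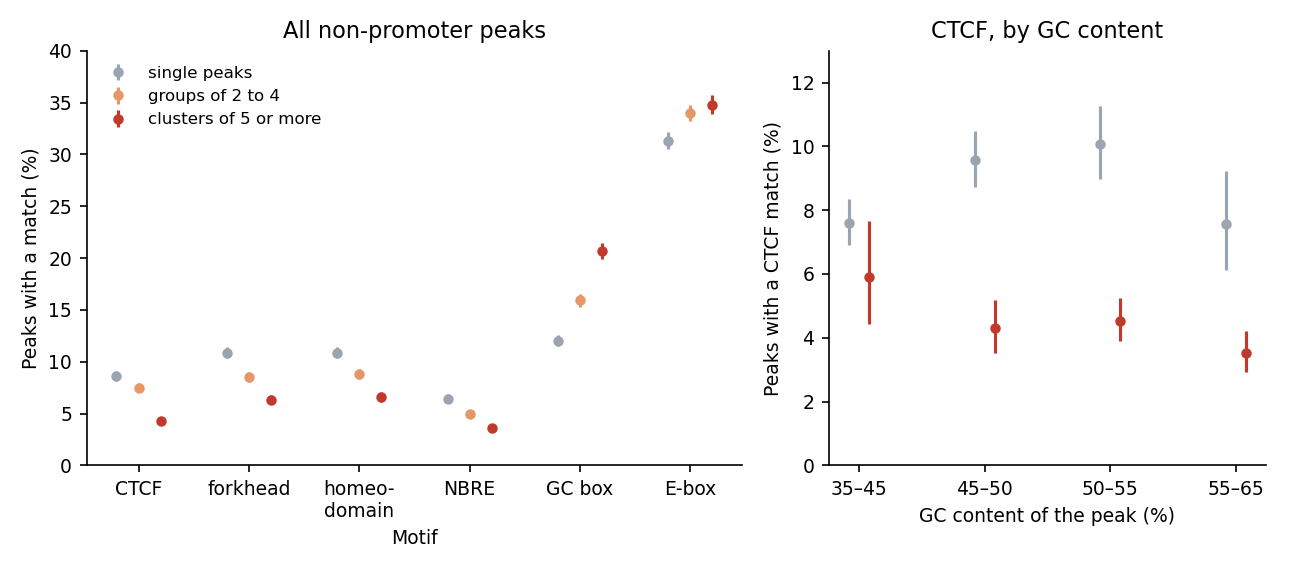
Left, share of single peaks (grey), peaks of groups of 2 to 4 (orange) and peaks of clusters (red) with a match to each of 6 motifs, in percent with 95% exact binomial intervals. Right, share with a CTCF match in single peaks and peaks of clusters within 4 classes of GC content, where clusters are lower in each class and the intervals overlap in the lowest.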

How the data were processed

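Per the labels and the methods of the study, snATAC-seq reads from the VTA were aligned to mm10 with Cell Ranger, and the authors used ArchR to cluster nuclei, to select DNs and to call peaks of 500 bp from pseudobulk replicates. The deposited list holds 55326 peak positions (chromosome, start, end) of both DN libraries pooled, with no count, score or p-value. Doublets were gated out in the sort of nuclei and removed with ArchR, per the methods of the study. Starts were read as counted from 0 and are printed counted from 1. Depth per sample is not given in the list.

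Peaks were stitched as described at the head of the report, with protein-coding transcripts of GENCODE M21 (basic set). A cluster took the name of the protein-coding gene that most of its peaks overlapped by at least 1 bp, or else of the nearest gene. An exon peak has its middle base in an exon of a protein-coding transcript, and an intron peak has it elsewhere in a protein-coding gene. A peak counted as intronic may thus still overlap an exon with its flanks. Gene ends are those of the longest annotated model. Sequence was read from GRCm38, and 15 motifs were searched on both strands. Named were the 25 clusters with the most peaks, clusters at dopaminergic genes, up to 4 genes of each of the other lists by peaks in clusters, the 3 longest clusters and the 3 without a gene that lie farthest from a start. Results for some genes that the rule names are not reported here. Genes outside this rule are named as a count or value asks. Members, lists and motifs were chosen with earlier results of these data known. Stitching and motif search were tested on simulated data. Scripts ran in Python 3.11.15, with scipy 1.17.1 for intervals, pandas 2.3.3 and numpy 2.4.6 for tables, and matplotlib 3.10.9 for figures. Alternatives varied the gap, the promoter distance, the transcript set, the smallest cluster and the chromosomes. No p-value was computed, since the list has no replicates.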

Additional observations from a re-analysis of the deposited data

How the results depend on the processing

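The differences between clusters and single peaks in GC content, forkhead share and CTCF share kept their direction under all alternatives tried, and other differences were not recomputed. Joining at gaps of at most 6 kb gave 836 clusters with 16.3% of non-promoter peaks, 937 genes overlapped and a difference in CTCF share (clusters minus single peaks) of -5.20 percentage points, and at most 25 kb gave 44.1% of peaks, 2834 genes and -3.41 points. Dropping peaks within 2.5 kb of a start gave 24.01% of peaks, 87.6% of clusters over a gene and 1145 genes, and dropping none gave 1994 clusters, 33.8% of peaks, 95.2% over a gene, 3666 genes, a GC difference of 4.71 points and a CTCF difference of -3.00 points. With starts of every transcript type, 26.6% of peaks were in clusters. Clusters of 4 or more peaks held 34.6% of peaks, 88.2% overlapped a gene and the GC difference was 5.55 points, and clusters of 10 or more peaks numbered 311 with 12.7% of peaks, 93.9% over a gene, 615 genes, and differences of 6.40 points in GC and -5.18 points in CTCF share. By the nearest start to its centre, 752 of 1256 clusters (59.9%) took the same gene. Leaving out the read-through gene *Gm20388*, which spans 4435 kb and names 14 clusters, was added after seeing the data and gave 1755 genes. No paired analysis was possible because only the peak list, in which both libraries are pooled, was used here, and for the same reason neither library could be left out. Peaks too weak to be called at this depth are missing from the clusters, and a cluster may be split where one was missed.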

Other observations

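The X chromosome, which the choice of clusters left out, had 319 non-promoter peaks and 1 cluster of 5 peaks over 3.41 kb, without a protein-coding gene. The cluster held 1.57% (0.511 to 3.62%) of the peaks of X, against 12.7 to 36.6% on the autosomes. The most compact autosomal clusters were of a similar kind, with 5 peaks over 3.02 kb at 128.4 kb from *Ubr2*, the nearest protein-coding gene, and 5 peaks over 3.08 kb at 1.02 kb upstream of *Pcdh7*, a protocadherin gene, where the median gap between peaks was 123 and 128 bp. The first of these overlapped *Trerf1*, annotated as a processed transcript that is not protein-coding, and 3 of its 5 peaks lay within 1 kb of a start of a transcript outside the protein-coding set. These values were singled out after they were seen. Of the 1084 genes that name a cluster, 119 name more than 1, led after *Gm20388* by *Ptprn2*, a gene of dense-core vesicles, which spans 791.1 kb and names 8 clusters with 61 peaks, and 54 peaks of clusters overlap the gene.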
